A study of Mus musculus with 12 samples.

Results

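The genes for voltage-gated sodium channel subunits were followed in spiral ganglion neurons, the sensory neurons that link cochlear hair cells to the brainstem. They were chosen by symbol as 8 named genes, namely the pore-forming alpha subunits Scn1a, Scn2a, Scn3a, Scn8a and Scn9a and the accessory beta subunits Scn2b, Scn3b and Scn4b. All 8 were found among the 25674 genes of the count table, and 7 passed the filter on low counts, with Scn4b below it. The neurons were taken from E14.5 mouse embryos on a mixed C57BL/6 and sv129 background, and each library held 100 cells sorted for the red reporter tdTomato, per the labels from 1 embryo. The 6 control libraries came from embryos of the genotype Neurod1Cre;Rosa26tdTOM, and the 6 libraries labelled ISL1CKO from Neurod1Cre;Isl1loxP/loxP;Rosa26tdTOM embryos. Both groups therefore carry the Neurod1-Cre transgene and the Cre-activated reporter, and the labelled difference is the floxed Isl1 gene, which encodes a LIM homeodomain transcription factor. The Cre comes from an inserted Neurod1 BAC construct, so recombination and red label mark cells that have used the Neurod1 promoter, not every cell of the ganglion.

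A voltage-gated sodium channel is formed by 1 alpha subunit, a large protein that opens on depolarisation, lets sodium in and starts the action potential. Beta subunits are small membrane proteins with an immunoglobulin-like domain that alter the gating, surface number and adhesion of the channel. Neurons use several alpha subunits in different mixtures: Scn3a is known as an embryonic neuronal subunit, Scn2a, Scn8a and Scn1a as those of central axons and nodes, and Scn9a as one of peripheral sensory and sympathetic neurons.

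The libraries held 11895603 to 13857480 counts. The targeted gene did not separate the groups: Isl1 was at 1171, 1777, 1569, 1429, 1708 and 1574 CPM (counts scaled to a common library size) in controls 1 to 6 and at 1050, 1497, 1406, 1441, 1361 and 1589 CPM in ISL1CKO 1 to 6 (log2 ratio of ISL1CKO over control -0.15, edgeR adjusted p = 0.460). Counts over the whole gene do not show whether the floxed segment was removed, so each direction below is that of libraries labelled ISL1CKO against control libraries. The libraries labelled ISL1CKO 2, 3 and 5 held Xist, at 62.9 to 132 CPM, together with Y-linked transcripts, at a mean of 35.7 to 87.3 CPM, whereas the other 9 libraries held only 1 of the 2 above 1 CPM. These values go against the labels' 1 embryo per library for the 3 libraries. The share of counts in mitochondrial genes was 0.845% to 1.02% in libraries labelled ISL1CKO and 1.05% to 1.65% in controls, without overlap, and its part in the results was not tested. Each result that rests on these 3 libraries is given without them too where its call ended. The cells carried the RNA of neurons: all 15 spiral ganglion neuron markers were tested, and Stmn2, Tubb3 and Pou4f1 stood at 783 CPM or more in all 12 libraries. The mean level of the 15 markers was lower in the libraries labelled ISL1CKO, at 8.98 ± 0.271 against 9.60 ± 0.0726 in log2(CPM + 1) (SD, n = 6; p = 0.00216 by exact permutation, 0.00758 after adjustment over 7 marker lists). Of these markers 5 passed the test downward, among them the neurofilament genes Nefl and Nefm, whose exons overlap on opposite strands, and 2 upward, Stmn2 and Neurod1. In such sorted pools, fewer cells of a type and less RNA per cell cannot be told apart. The general neuronal genes of the list did not move as one. Snap25 averaged 626 and 635 CPM in controls and libraries labelled ISL1CKO and did not pass the test (log2 ratio 0.022, edgeR adjusted p = 0.945). Tubb3, Elavl3 and Map2 did not pass either (log2 ratios of 0.30, 0.024 and 0.21, edgeR adjusted p of 0.101, 0.904 and 0.231). Elavl4 averaged 1708 and 1219 CPM and fell (log2 ratio -0.49, edgeR adjusted p = 0.00928), whereas Stmn2 rose (log2 ratio 0.54, edgeR adjusted p = 6.08e-04). The level of Snap25 alone does not show equal neuron content.

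Of the 7 tested subunit genes, 3 passed the quasi-likelihood test of edgeR at a p of 0.05, adjusted after Benjamini and Hochberg over all 14813 genes tested. Scn9a fell, and Scn1a and Scn3b rose. The background was 10.2% of all tested genes called, 5.19% lower and 5.01% higher, against 42.9% of the tested subunit genes. With so few genes this share is a description. Scn2a, Scn3a, Scn8a and Scn2b did not pass. The median log2 ratio of the 7 was -0.12, beside 0.0045 over all tested genes. The median size without regard to sign was 0.34, beside 0.27 over all genes. Scn9a alone among them had no overlap between the groups, which held for 6.78% of all tested genes, namely 3.65% of the tested genes below and 3.13% above the controls.

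**Figure D1:**
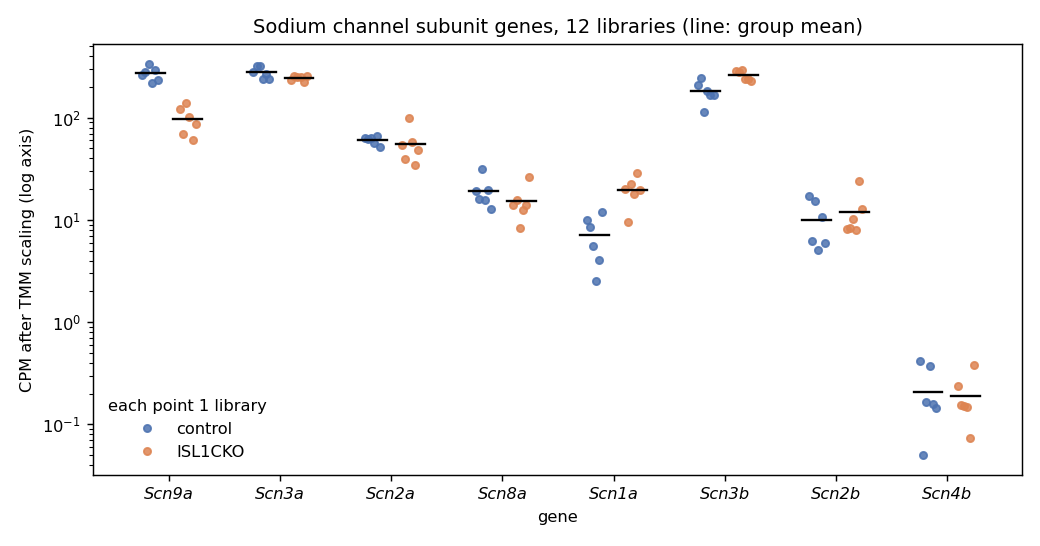
Level of the 8 subunit genes in each library, in CPM on a log axis, with a black line at each group mean and control 2, which had no Scn4b count, drawn at 0.05. All 6 libraries labelled ISL1CKO lie below all 6 controls for Scn9a, while 5 of 6 libraries labelled ISL1CKO lie above all controls for Scn1a and 3 of 6 for Scn3b.

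Scn9a encodes NaV1.7, the alpha subunit known for setting the firing threshold of peripheral sensory neurons. The gene (ENSMUSG00000075316) lies on chromosome 2 at 66480080 to 66634962, minus strand, in GENCODE M21 on GRCm38. Its level ran from 220 to 338 CPM in controls with a median of 272 CPM, and from 60.0 to 139 CPM in libraries labelled ISL1CKO with a median of 94.5 CPM. The lowest control was above the highest library of the other group. Mean levels were 271 ± 43.3 and 96.6 ± 30.8 CPM (SD, n = 6), a 2.81-fold lower level (log2 ratio of ISL1CKO over control -1.49, standard error SE 0.19, edgeR adjusted p = 9.91e-05). These were deep counts, with at least 823 per library. The fall passed the threshold in all 21 alternative settings, with log2 ratios from -1.62 to -1.38. Without ISL1CKO 2, 3 and 5 it was -1.39 (edgeR adjusted p = 4.51e-04).

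Scn1a encodes NaV1.1, a subunit known from central neurons and from myelinated axons, and it moved the opposite way. The gene (ENSMUSG00000064329) is the direct neighbour of Scn9a among the sodium channel genes, at 66270778 to 66440840 on the same strand, with 39.24 kb between them. Controls ran from 2.52 to 12.0 CPM with a median of 7.01 CPM, and libraries labelled ISL1CKO from 9.47 to 28.7 CPM with a median of 20.0 CPM. Only ISL1CKO 2, the lowest of its group, reached into the range of the controls. On average the levels were 7.11 ± 3.68 and 19.8 ± 6.28 CPM (SD, n = 6), a 2.79-fold higher level (log2 ratio 1.48, SE 0.36, edgeR adjusted p = 0.0160). The call ended without ISL1CKO 2, 3 and 5 (log2 ratio 1.44, edgeR adjusted p = 0.0866) and when the levels of macrophage and Schwann markers were added as covariates (log2 ratio 1.61, edgeR adjusted p = 0.0546).

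The 250 bases before the RefSeq start of these neighbours are shown because they carry the opposite changes. They run 5′ to 3′ on the strand of the gene, from RefSeq on GRCm38.p6. Scn9a lies at chr2:66634963-66635212 and Scn1a at chr2:66440838-66441087, both minus strand. Capitals mark TAAT, a core that many homeodomain proteins can bind, and CANNTG, the E-box of basic helix-loop-helix proteins, each searched on both strands.
Scn9a: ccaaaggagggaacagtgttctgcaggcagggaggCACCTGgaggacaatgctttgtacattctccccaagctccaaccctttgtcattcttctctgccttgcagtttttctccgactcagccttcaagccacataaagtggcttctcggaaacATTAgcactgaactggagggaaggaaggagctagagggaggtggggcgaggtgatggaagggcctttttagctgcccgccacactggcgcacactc
Scn1a: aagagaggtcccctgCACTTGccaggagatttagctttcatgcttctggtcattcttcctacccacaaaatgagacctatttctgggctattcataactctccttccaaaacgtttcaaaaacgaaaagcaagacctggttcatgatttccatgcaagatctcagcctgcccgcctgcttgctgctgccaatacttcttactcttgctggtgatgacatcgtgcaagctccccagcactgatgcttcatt
The Scn9a window held 1 TAAT, read here as its reverse complement, and 1 CANNTG, and the 2 did not overlap. The Scn1a window held 1 CANNTG and no TAAT. Among 32851 promoter windows of the same length, 54.9% held a TAAT and 66.2% a CANNTG, so these matches are common letters and describe only the windows. The share of G and C was 54.4% in the Scn9a window and 46.8% in the Scn1a window, beside a median of 52.4% over all windows. In the table of promoters, 6 of the 8 subunit genes had a window.

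Scn3a encodes NaV1.3 and was, with Scn9a, the most abundant alpha subunit transcript of the controls per exon length. The gene (ENSMUSG00000057182, chromosome 2, 65457118 to 65567627, minus strand) ran from 237 to 322 CPM in controls, median 272 CPM, and from 225 to 257 CPM in libraries labelled ISL1CKO, median 251 CPM. The ranges overlapped, and the difference did not pass (log2 ratio -0.17, SE 0.088, edgeR adjusted p = 0.255). In the libraries labelled ISL1CKO the gene varied least of the 8, with a coefficient of variation of 5.15%.

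Scn2a encodes NaV1.2, a subunit of young axons. It (ENSMUSG00000075318, chromosome 2, 65620771 to 65767447, plus strand) ran from 51.8 to 66.3 CPM in controls with a median of 62.2 CPM. Libraries labelled ISL1CKO ran from 34.7 to 99.0 CPM with a median of 51.2 CPM. They reached both below and above the whole control range, and the difference did not pass (log2 ratio -0.12, SE 0.21, edgeR adjusted p = 0.773). The coefficient of variation was 8.73% in controls and 41.4% in libraries labelled ISL1CKO, or 20.9% without ISL1CKO 3, the highest library. That difference in spread was not tested.

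Scn8a encodes NaV1.6, known from the initial segment and nodes of mature axons. The gene (ENSMUSG00000023033, chromosome 15, 100869858 to 101045938, plus strand) ran from 12.8 to 31.7 CPM in controls, median 17.6 CPM, and from 8.43 to 26.1 CPM in libraries labelled ISL1CKO, median 14.1 CPM. The groups overlapped widely (log2 ratio -0.34, SE 0.27, edgeR adjusted p = 0.502).

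Of the 3 beta subunit genes followed, Scn3b was by far the most abundant. It encodes a beta subunit that binds alpha subunits without a disulphide bond and is known from embryonic neurons. The gene (ENSMUSG00000049281, chromosome 9, 40269217 to 40291618, plus strand) ran from 114 to 243 CPM in controls with a median of 175 CPM. In libraries labelled ISL1CKO it ran from 227 to 293 CPM with a median of 259 CPM. Control 2 alone lay inside the range of the libraries labelled ISL1CKO, and control 3 was the lowest of all. The averages were 181 ± 43.5 and 260 ± 27.5 CPM (SD, n = 6), a 1.44-fold higher level (log2 ratio 0.53, SE 0.14, edgeR adjusted p = 0.0281). The call was close to the threshold. It ended in 6 of the 12 fits that left out 1 library, namely ISL1CKO 1, 2 or 3 or control 4, 5 or 6, where adjusted p reached at most 0.0642, and without ISL1CKO 2, 3 and 5 together (log2 ratio 0.47, edgeR adjusted p = 0.226). With the marker covariates it was 0.54 (edgeR adjusted p = 0.124). Over all 21 alternatives the log2 ratio stayed between 0.42 and 0.62.

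Scn2b and Scn4b were rare. Scn2b, whose protein is joined to the alpha subunit by a disulphide bond, (ENSMUSG00000070304, chromosome 9, 45117782 to 45130070, plus strand) ran from 5.04 to 17.3 CPM in controls, median 8.42 CPM, and from 7.92 to 24.1 CPM in libraries labelled ISL1CKO, median 9.27 CPM. The groups overlapped (log2 ratio 0.25, SE 0.38, edgeR adjusted p = 0.745), and ISL1CKO 5 was the highest library. Leaving that library out turned the sign (log2 ratio -0.083, edgeR adjusted p = 0.927). Scn4b, whose protein is also joined by a disulphide bond, is known from fast-firing neurons of later ages and lies 8.324 kb downstream of Scn2b (ENSMUSG00000046480, chromosome 9, 45138395 to 45154152, plus strand). It had 0 to 5 counts in every library, about the 3 counts taken here as the floor of detection, so no fold change is given.

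Levels were set between genes only after division by exon length, as CPM per kilobase of the union of annotated exons. In controls the order was Scn3b at 33.1 ± 7.96, Scn3a at 22.2 ± 3.03, Scn9a at 21.2 ± 3.39, Scn2a at 4.75 ± 0.415, Scn2b at 2.16 ± 1.12, Scn8a at 1.22 ± 0.420, Scn1a at 0.637 ± 0.330 and Scn4b at 0.0421 ± 0.0312 CPM per kb (SD, n = 6). The ranges of the neighbours Scn3b and Scn3a, Scn3a and Scn9a, Scn2b and Scn8a, and Scn8a and Scn1a overlapped, whereas Scn9a stood clear above Scn2a, Scn2a clear above Scn2b and Scn1a clear above Scn4b. In libraries labelled ISL1CKO the order changed in that Scn1a, at 1.78 ± 0.563 CPM per kb, stood before Scn8a, at 0.961 ± 0.374, with overlapping ranges. Scn9a, at 7.56 ± 2.41, no longer reached Scn3a, at 19.7 ± 1.01, and its range overlapped that of Scn2a, at 4.37 ± 1.81 CPM per kb (SD, n = 6). There Scn3b, at 47.7 ± 5.03, stood clear above Scn3a, while Scn2a and Scn2b, and Scn2b and Scn1a, overlapped. Exon unions count every annotated isoform, so a gene with long untranslated exons that were not used here reads too low on this scale.

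**Figure D2:**
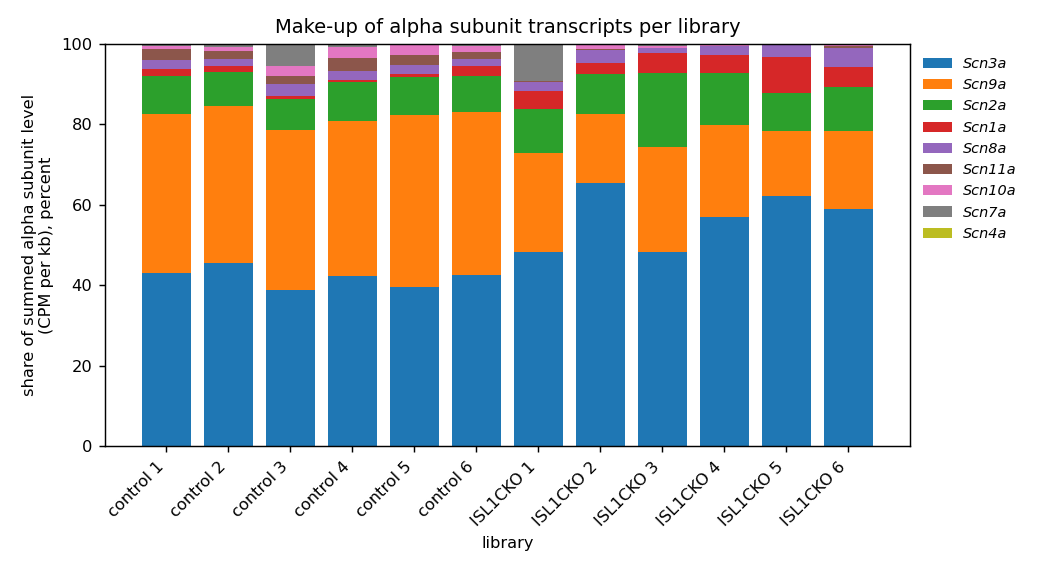
Share of each alpha subunit gene in the summed level of 9 alpha genes, in percent of CPM per kilobase, with 1 stacked bar per library. The Scn9a segment takes 38.3% to 42.7% of every control bar and 16.2% to 26.0% of every ISL1CKO bar, and the Scn11a segment 1.57% to 3.22% and 0% to 0.479%.

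The make-up of alpha subunit transcripts differed accordingly, given here as a description over 9 alpha genes, the 5 above with Scn4a, Scn7a, Scn10a and Scn11a. Scn9a held 40.0% ± 1.51 of the summed level per kilobase in controls and 21.0% ± 4.02 in libraries labelled ISL1CKO (SD, n = 6). Scn3a held 42.0% ± 2.43 and 56.7% ± 7.12, and Scn1a 1.24% ± 0.739 and 5.12% ± 2.03 (SD, n = 6). Shares are bound to each other, so a larger share of Scn3a goes with a level that did not pass the test. The summed level was 44.8 to 66.5 CPM per kb in controls and 29.0 to 41.9 in libraries labelled ISL1CKO, with no overlap. The ratio of Scn9a to Scn3a CPM within a library, which does not depend on library scaling, ran from 0.878 to 1.11 in controls and from 0.267 to 0.552 in libraries labelled ISL1CKO. The ratio of Scn3b to Scn3a ran from 0.354 to 0.760 in controls and from 0.886 to 1.20 in the other group, so these ratios did not overlap although the Scn3b levels did. The share of other gene pairs with such separation was not taken, so the ratios are a description and lend the Scn3b call no weight. For Scn1a to Scn9a it ran from 0.0114 to 0.0519 and from 0.138 to 0.479.

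Relatives outside the 8 held larger changes than any of the 8. Of 8 other sodium channel genes, a list that also holds the Nalcn complex genes Unc79, Unc80 and Fam155a, 7 were tested. Of these 3 fell and 1, Fam155a, rose. All 3 falls, picked here as called genes, were without overlap between the groups, which held downward for 3.65% of all tested genes. The share called was 57.1%, a description beside the 10.2% of all genes, and the median log2 ratio of the 7 was -0.32. Scn10a and Scn11a, which encode the tetrodotoxin-resistant alpha subunits NaV1.8 and NaV1.9, lie side by side within 217.0 kb on chromosome 9, and both fell.

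Scn11a (ENSMUSG00000034115, 119753759 to 119825456), known from nociceptors, had 57 to 116 counts per control library and 0 to 13 per library labelled ISL1CKO. Its means were 7.19 ± 1.68 and 0.295 ± 0.378 CPM (SD, n = 6; log2 ratio -4.57, SE 0.76, edgeR adjusted p = 0.00102). The libraries labelled ISL1CKO had 4, 5, 1, 0, 0 and 13 counts, about the floor of 3, so the size of this ratio is uncertain: it was -5.46 without ISL1CKO 6 and -5.27 with limma-voom (adjusted p of 3.63e-04 and 4.78e-04). Scn10a (ENSMUSG00000034533, 119608456 to 119719322), also a nociceptor subunit, averaged 8.10 ± 3.93 and 1.17 ± 0.926 CPM (SD, n = 6; log2 ratio -2.78, SE 0.55, edgeR adjusted p = 0.00394). ISL1CKO 1 to 6 held 3, 36, 21, 10, 7 and 15 counts of Scn10a, with ISL1CKO 1 at the floor of 3. The size of the Scn10a ratio is therefore uncertain too. Without ISL1CKO 2, 3 and 5 the log2 ratio of Scn10a was -3.50 (edgeR adjusted p = 0.0106). The highest library labelled ISL1CKO was below the lowest control for both genes, and the calls held in every alternative in which the gene was tested.

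The chromosome 2 group showed no such common direction. Over 1328.0 kb it holds Scn3a, Scn2a, Scn1a, Scn9a and Scn7a, of which Scn9a fell, Scn1a rose and 3 did not pass, and 0 of the 3 other tested genes in this span were called, namely Gm13595, Csrnp3 and Ttc21b. These neighbours were looked at after the values of the channel genes were seen. Scn7a (ENSMUSG00000034810), which encodes an atypical channel that senses sodium and is found in glia as well as neurons, was at 26.9 CPM in control 3 and 26.1 CPM in ISL1CKO 1 and at most 2.59 CPM in the other libraries. The groups overlapped (log2 ratio -0.32, SE 1.44, edgeR adjusted p = 0.924). The Schwann cell marker level was 1.35 log2(CPM + 1) in control 3 and 2.81 in ISL1CKO 1. Over all 12 libraries, these included, it ran from 1.22 to 3.74, and a glial source of the Scn7a counts was not tested.

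Nalcn, the sodium leak channel that sets resting excitability, fell, while Fam155a, which encodes a protein of the same complex, rose. Nalcn (ENSMUSG00000000197) ran from 33.3 to 53.3 CPM in controls and from 17.1 to 29.9 CPM in libraries labelled ISL1CKO, without overlap (log2 ratio -0.93, SE 0.17, edgeR adjusted p = 0.00181). Fam155a (ENSMUSG00000079157) averaged 9.85 ± 2.38 and 18.6 ± 3.57 CPM (SD, n = 6; log2 ratio 0.92, edgeR adjusted p = 0.0125), a call that ended without ISL1CKO 2, 3 and 5 (edgeR adjusted p = 0.0864) and with the marker covariates (edgeR adjusted p = 0.0543). The complex members Unc79 and Unc80 had log2 ratios of 0.16 and 0.66 and did not pass (edgeR adjusted p of 0.719 and 0.380). Scn4a, the skeletal muscle subunit, had at most 4 counts in any library.

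**Figure D3:**
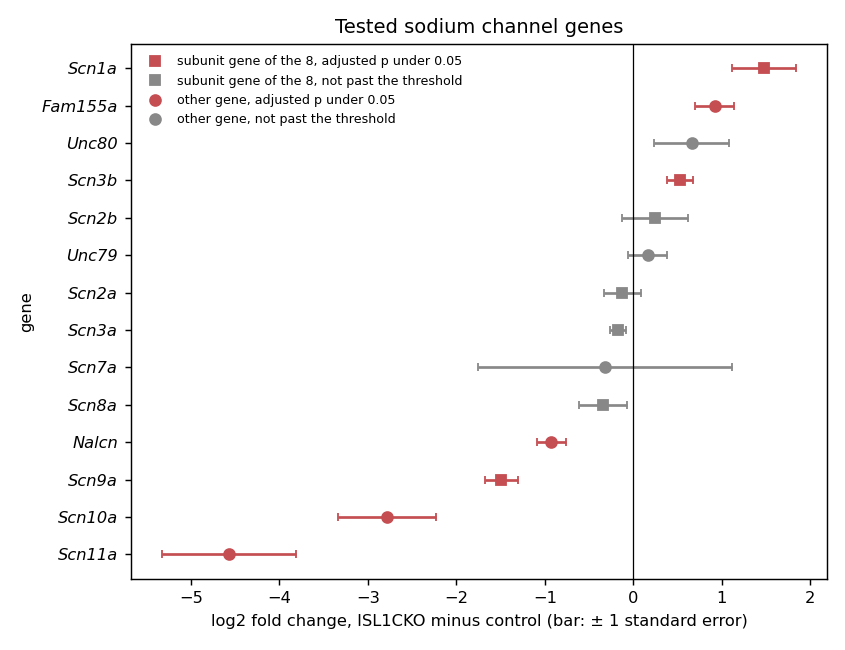
Log2 ratio (fold change) of the 14 tested sodium channel and Nalcn complex genes, libraries labelled ISL1CKO minus control, with bars of ± 1 standard error. Squares are subunit genes among the 8, circles the other genes, and red marks an adjusted p under 0.05. Scn11a and Scn10a lie farthest left at -4.57 and -2.78, and Scn1a farthest right at 1.48.

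The genes whose proteins bind, anchor or process sodium channels were read from a list of 28, of which 26 were tested, with Prrt2 under the filter and Rangrf not analysed here. Of these 4 fell, 2 rose and 20 did not pass. The share called was 23.1%, a description beside the 10.2% of all genes, and the median log2 ratio -0.12. The 4 fibroblast growth factor homologous factors, which stay inside the cell and bind the tail of the alpha subunit, did not share a direction: Fgf11 and Fgf13 fell, Fgf14 rose and Fgf12 did not pass. Fgf13 (ENSMUSG00000031137, chromosome X, 59062145 to 59568071) ran from 580 to 814 CPM in controls and from 212 to 275 CPM in libraries labelled ISL1CKO. The groups were far apart, with Fgf13 lower in the libraries labelled ISL1CKO (log2 ratio -1.41, SE 0.099, edgeR adjusted p = 3.99e-07).

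Fgf14 (ENSMUSG00000025551, chromosome 14, 123977907 to 124677127) went the other way, from 2.08 to 7.41 CPM in controls to between 10.9 and 52.1 CPM in libraries labelled ISL1CKO, again without overlap (log2 ratio 2.84, SE 0.41, edgeR adjusted p = 3.17e-04). Within a library the ratio of Fgf13 to Fgf14 CPM ran from 82.9 to 300.0 in controls and from 5.12 to 19.4 in libraries labelled ISL1CKO. With both genes separated in opposite directions, this ratio had to separate too. Fgf11 averaged 14.4 ± 2.92 and 7.17 ± 2.56 CPM (SD, n = 6; log2 ratio -1.01, edgeR adjusted p = 0.0268), a call that ended without ISL1CKO 4, ISL1CKO 6, control 4 or control 5, at adjusted p up to 0.0596, and with the marker covariates (edgeR adjusted p = 0.123). Fgf12 had a log2 ratio of 0.63 and did not pass (edgeR adjusted p = 0.303).

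The ankyrins also split. Ank3 encodes ankyrin-G, the scaffold that holds sodium channels at the axon initial segment and nodes, and Ank2 encodes ankyrin-B of the axon shaft. Ank3 (ENSMUSG00000069601) ran from 244 to 427 CPM in controls and from 153 to 187 CPM in libraries labelled ISL1CKO (log2 ratio -0.80, SE 0.12, edgeR adjusted p = 4.85e-04). Ank2 (ENSMUSG00000032826) ran from 501 to 686 CPM in controls and from 722 to 958 CPM in libraries labelled ISL1CKO (log2 ratio 0.62, SE 0.088, edgeR adjusted p = 2.86e-04). Neither gene overlapped between the groups, and the ratio of Ank2 to Ank3 CPM within a library ran from 1.35 to 2.42 in controls and from 4.29 to 6.27 in libraries labelled ISL1CKO. As the genes were separated in opposite directions, their ratio had to separate as well. Nrcam, an adhesion molecule that ankyrin-G binds at nodes, averaged 378 ± 35.0 and 252 ± 28.0 CPM (SD, n = 6) and fell by 0.59 on the log2 scale (edgeR adjusted p = 4.47e-04). Its partner Nfasc did not pass (log2 ratio -0.20, edgeR adjusted p = 0.423), and neither did Rest, the repressor of many neuronal genes, Scn2a among its classic targets (log2 ratio -0.23, edgeR adjusted p = 0.855).

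**Figure D4:**
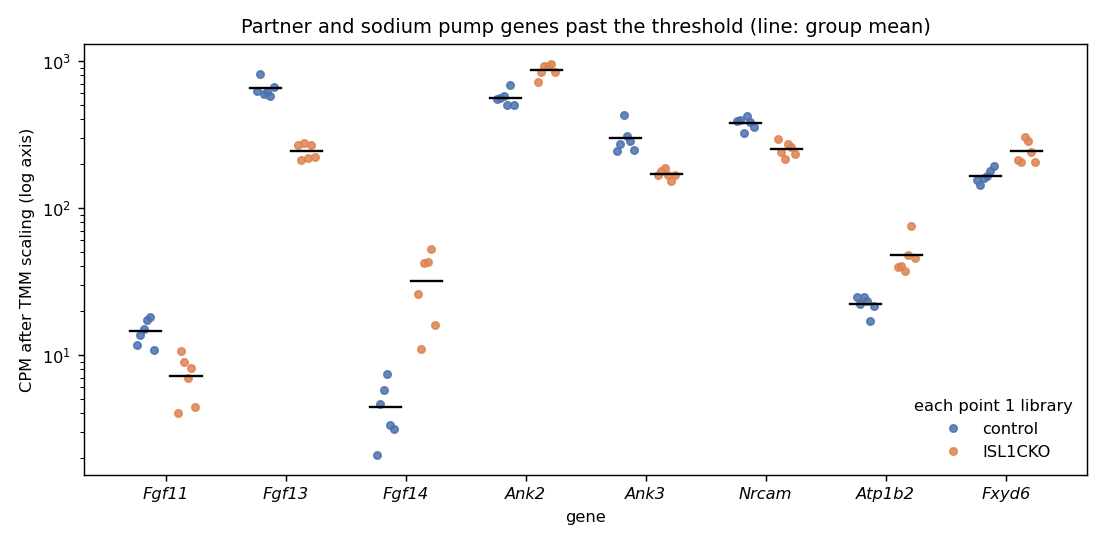
Level of the 8 partner and sodium pump genes past the threshold in each library, in CPM on a log axis with a black line at each group mean. Fgf11, Fgf13, Ank3 and Nrcam are lower and Fgf14, Ank2, Atp1b2 and Fxyd6 higher in every library labelled ISL1CKO than in any control. Such separation held for 6.78% of all tested genes, and these genes are shown because they passed the test.

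The sodium gradient that the channels use is kept by the sodium-potassium pump and the sodium-calcium exchangers. Of 13 such genes, all tested, 2 rose, 0 fell and 11 did not pass. The share of 15.4%, beside the 10.2% of all genes, is a description, and the median log2 ratio was 0.025. Atp1b2, a pump beta subunit, averaged 22.2 ± 2.93 and 47.6 ± 13.9 CPM (SD, n = 6; log2 ratio 1.10, SE 0.18, edgeR adjusted p = 8.65e-04). Fxyd6, a small regulator of the pump, averaged 165 ± 17.2 and 242 ± 44.0 CPM (SD, n = 6; log2 ratio 0.55, edgeR adjusted p = 0.00542), a call that ended without ISL1CKO 2, 3 and 5 (edgeR adjusted p = 0.0512) and with the marker covariates (edgeR adjusted p = 0.0527). Both genes, named because they were called, had no overlap between the groups, which held upward for 3.13% of all tested genes.

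Similar sequences can exchange reads. Of the 50-base windows in the annotated transcripts, 4.04% of Scn9a, 4.03% of Scn1a, 5.62% of Scn2a and 6.49% of Scn3a also occurred in another sodium channel gene, against 0.0374% of Scn8a and 0 of 5646 windows of Scn3b. How such reads were counted is not given in the sources used here. Exons of the antisense gene Gm13629 covered 1.41% of the Scn9a exon bases, and it had 87 counts over all 12 libraries, against 823 or more counts of Scn9a in each.

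Markers of other cells were read beside these results. Macrophage markers, 10 of 10 tested, summed to 3.26 to 366 CPM in controls and 1.86 to 774 CPM in libraries labelled ISL1CKO, and 0 of them were called. Schwann cell and satellite glia markers, 6 of 9 tested, summed to 31.9 to 186 and 35.0 to 260 CPM, with 0 called. Mesenchyme markers, 4 of 8 tested, summed to 38.4 to 84.3 and 70.3 to 121 CPM with 2 called upward, Tbx18, from 0 to 3.73 CPM in controls to between 24.6 and 51.4 CPM, and Col3a1, and the mean level of the list was higher in libraries labelled ISL1CKO, at 2.41 ± 0.267 against 1.42 ± 0.174 log2(CPM + 1) (SD, n = 6; p = 0.00216 by exact permutation, 0.00758 after adjustment). The list did not move as one. Pou3f4 averaged 52.9 and 27.4 CPM in controls and libraries labelled ISL1CKO (log2 ratio -0.95, edgeR adjusted p = 0.143) and Col1a2 1.301 and 4.668 CPM (log2 ratio 1.83, edgeR adjusted p = 0.0602). Of the untested members, Twist1 averaged 1.13 and 0.0129 CPM, Prrx1 0.337 and 4.72 CPM, Pdgfra 0.196 and 0.701 CPM, and the defining collagen gene Col1a1 0.234 and 0.564 CPM. Hair cell markers, 3 of 5 in the table tested, summed to 12.3 to 56.6 and 4.59 to 19.9 CPM with 1 called downward, Ccer2, and their mean level was lower (1.14 ± 0.340 against 1.93 ± 0.501, SD, n = 6; p = 0.0108 by exact permutation, 0.0253 after adjustment), with Pou4f3 at most 2.67 CPM. The hair cell difference no longer passed with a pseudocount of 0.1 or without ISL1CKO 1, 5 or 6 or control 3, 4, 5 or 6 (exact permutation adjusted p from 0.0505 to 0.0556). Endothelial and blood markers summed to at most 29.7 and 5.87 CPM and did not differ past the threshold (exact permutation adjusted p of 0.231 and 0.476). The part of these cells in the sodium channel changes was not tested beyond the macrophage and Schwann cell marker covariates. Mesenchyme and hair cell levels, which differed between the groups, were not among the covariates, so their part was not tested. In that fit Scn9a fell by 1.42 on the log2 scale (edgeR adjusted p = 0.00159), while the calls of Scn1a and Scn3b ended (edgeR adjusted p of 0.0546 and 0.124).

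The genes most like each called subunit were found by the root mean square difference between centred log2 CPM profiles over the 12 libraries, among the 9595 tested genes whose mean log2 CPM reached 3. For Scn9a they were Agfg1, Sncg and Id4, at differences of 0.218, 0.237 and 0.238 log2 units. For Scn1a they were Ccdc28a, Filip1 and Arhgap36, at 0.466, 0.491 and 0.532. For Scn3b they were Gm2381, Alg2 and Zfp874a, at 0.144, 0.145 and 0.148. Of these 9 genes, Arhgap36 and Gm2381 did not pass the test between the groups (edgeR adjusted p of 0.173 and 0.222). The measure favours genes with changes of the same size, and it says nothing of shared function.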

How the data were processed

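The authors deposited whole-number counts per Ensembl gene, not normalized, in 1 column for each of the 12 libraries, and 0 columns were left unmapped. The submitters' processing notes name cutadapt 1.18, Bowtie 1.2.2, STAR 2.7.0c, featureCounts and the build GRCm38.p6; the annotation and the use of strand are not given in the sources used here. Per the labels' protocols, 100 tdTomato+ cells from both inner ears of an embryo went into each library, made with a low-input kit. The study as a whole used 4 litters. The labels give no litter per sample, so the tests do not account for embryos that share a litter. The replicates are called technical in a tag and biological in the design text. They were treated as separate embryos, although ISL1CKO 2, 3 and 5 held Xist together with Y-linked transcripts. The p-values set the group difference against the spread between these libraries, which for those is not a clean spread between single embryos.

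From the counts, edgeR 4.0.16 under R 4.3.3 tested 14813 genes kept by filterByExpr (minimum count 10), with TMM scaling, a robust quasi-likelihood F-test without covariates and Benjamini-Hochberg adjustment over all of them at 0.05. The standard error is the log2 fold change divided by the root of F, without sign. Symbols matched 25620 identifiers; positions and exon lengths come from GENCODE M21. Marker levels, with a pseudocount of 1, were compared by exact 2-sided permutation over 924 splits, with 0.00216 the smallest p possible. The floor of 3 counts was 0.219 to 0.250 CPM and covers counting error only. Alternatives used DESeq2 1.42.0, limma 3.58.1, other scalings and filters, covariates, a replicate block and fewer libraries. The tests were tried on simulated counts. All 66 pairs of libraries differed by more than sampling noise. Named were all 8 subunit genes, 8 other channel genes, Isl1, the called genes of the partner and pump lists (at most 6 of each, by p) and the 3 genes most like each called subunit; marker genes and others named for context were chosen after their values were seen. Some genes of the lists are not reported here and were left out of the counts. The members and lists were chosen with earlier results of these data known.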

Additional observations from a re-analysis of the deposited data

Results flagged for a closer look

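Dixon's test for a single far value at the 95% level was applied to 42 sets of 6 libraries, and 7 held such a value, beside about 2.1 that chance would give. Scn2a was at 98.98 CPM in ISL1CKO 3, with 58.03 CPM next. Scn8a was at 31.7 CPM in control 3, with 19.82 CPM next. Scn2b was at 24.14 CPM in ISL1CKO 5, with 12.73 CPM next. Scn7a was at 26.86 CPM in control 3, with 2.589 CPM next, and at 26.13 CPM in ISL1CKO 1, with 1.581 CPM next. The mesenchyme marker level was 1.093 log2(CPM + 1) in control 3, with 1.417 next, and 2.94 in ISL1CKO 2, with 2.375 next. Control 3 was also the shallowest library and held the largest mitochondrial share of all 12, 1.65% against at most 1.18% in the other controls and 1.02% in libraries labelled ISL1CKO.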

How the results depend on the processing

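Scn9a fell and passed the threshold in all 21 alternatives, as did Nalcn, Fgf13, Fgf14, Ank2, Ank3, Nrcam and Atp1b2 in their directions. The count of called subunit genes went from 3 to 1 (Scn9a) without ISL1CKO 2, 3 and 5 and also to 1 with macrophage and Schwann cell marker covariates, under which the count over all genes went from 1511 to 767 and 906; each of these settings also lowered the pump and exchange count from 2 to 1. Requiring a mean of 5 CPM left 2 other sodium channel genes called in place of 4, because Scn10a and Scn11a were then not tested. Leaving out 1 library at a time gave 1178 to 1517 called genes and 2 to 3 called subunit genes. Among the subunit, other channel, called partner and called pump genes and Isl1, those rerun under the alternatives, Scn2b and Scn7a changed sign, neither of which passed: Scn2b was at -0.066 without ISL1CKO 2, 3 and 5 and -0.083 without ISL1CKO 5 (range over single libraries left out -0.083 to 0.47), and Scn7a at 0.60 without ISL1CKO 2, 3 and 5 and 1.48 without control 3 (range -3.86 to 1.48). The correlation of same-numbered deviations ran from -0.056 to 0.152. Numbers 1 and 5 were closest to the control of the same number (0.0888 and 0.152), and the others to a control of another number. The range over pairs of unlike number is not given, so pairing by replicate number was not tested. With the replicate number as a block, 1450 genes, 3 subunit genes, 4 other sodium channel genes, 7 partner genes and 2 pump and exchange genes were called. Of the marker lists, 3 of 7 passed, and 2 to 3 with 1 library left out; 2 passed with a pseudocount of 0.1, and the hair cell list was the one lost. Depth limits Scn4b and Scn4a, which lie at the floor.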
